A study of Gallus gallus with 4 samples.

Results

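PNOC, OPRL1, CRHBP, CHAT and CHRNA4, genes of neuropeptide and cholinergic signalling, were followed in neural crest cells sorted from the head and the trunk of chick embryos. They were taken by name from the authors' deposited table of transcripts that differed between head and trunk, and they make up 5 of its 212 rows. PNOC, OPRL1 and CRHBP are listed there under their symbols. CHAT and CHRNA4 are listed under their chicken protein entry names, CLAT_CHICK and ACHA4_CHICK. The genes were chosen by name with their cranial and trunk values in this same comparison known, so every difference given for them is a description and carries no test.

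The cranial group consists of 2 libraries (replicates A and B) of cells sorted for GFP from dissected heads at Hamburger-Hamilton stage HH9+, after electroporation of the FoxD3 enhancer NC1. The trunk group consists of 2 libraries (replicates A and C) of cells sorted for GFP from dissected trunks at stage HH14, after electroporation of the FoxD3 enhancer NC2. Both groups share the electroporation, the dissociation and the exclusion of dead cells, and each depends on an enhancer of FoxD3, an early neural crest transcription factor gene, to mark the cells to be sorted. Axial level, stage and enhancer changed together, so their parts in any difference cannot be told apart. The labels do not say how many embryos entered a library or whether the libraries came from separate pools.

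Neuropeptides are cut from larger precursor proteins and act on receptors of the G protein-coupled class. PNOC is the precursor of nociceptin, a peptide of the opioid family, and OPRL1 is the nociceptin receptor. CRHBP is a secreted protein that binds corticotropin-releasing hormone and limits its access to receptors. Acetylcholine is made from choline and acetyl-CoA by choline O-acetyltransferase, the product of CHAT, and it opens nicotinic receptors, pentameric ion channels that can contain the alpha-4 subunit encoded by CHRNA4. Neural crest cells give rise to the autonomic ganglia, where cholinergic neurons and neuropeptides are known in later life. The groups compared here are much earlier, delaminating cells.

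In the authors' deposited table all 5 genes were higher in the cranial group, and all stood under 10 FPKM. The cranial values ran from 1.43 FPKM for OPRL1 to 8.15 FPKM for CRHBP in the authors' deposited table, where FPKM is fragment abundance scaled for transcript length and for sequencing depth. The trunk values ran from 0.158 FPKM for OPRL1 to 1.83 FPKM for CHRNA4, and 4 of the 5 genes, all but CHRNA4, lay under 1 FPKM there in the authors' deposited table. The authors' deposited table holds only rows marked as significant and higher in cranial cells, 100% of its 212 rows, so the shared direction of the 5 genes follows from their presence in it. The table gives 1 value per group, so each value printed here is the authors' group value, the spread between the 2 libraries and the read depth are unknown, and no SD can be given. In bulk samples, fewer cells expressing a gene and less RNA per cell cannot be told apart.

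**Figure D1:**
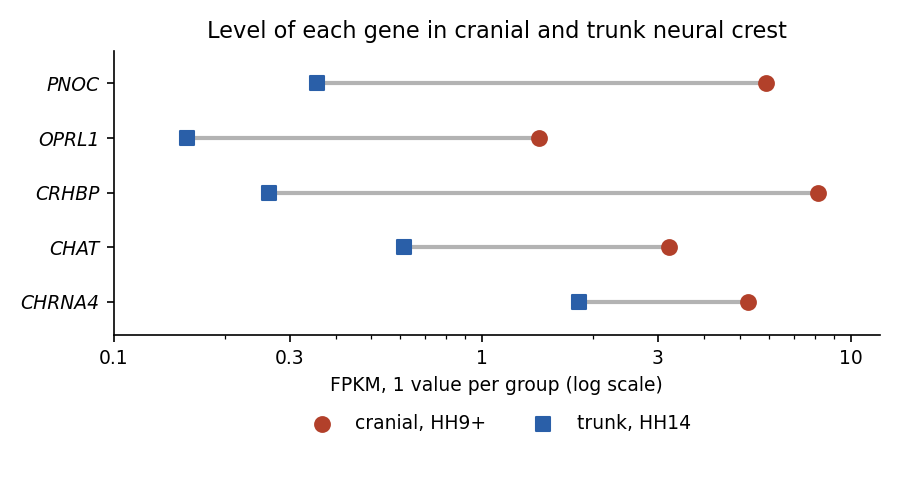
FPKM of the 5 genes on a log axis, with a red circle for the cranial group value and a blue square for the trunk group value; a grey line joins the values of a gene and is not an error bar. The cranial values lie between 1.43 and 8.15 FPKM, and CHRNA4 is the 1 gene whose trunk value, 1.83 FPKM, is above 1 FPKM.

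For PNOC, the nociceptin precursor (ENSGALG00000016620), the authors' deposited table gives 5.90 FPKM in the cranial group and 0.356 FPKM in the trunk group. The trunk value is a small fraction of the cranial one, a 16.6-fold difference (log2 4.05, q = 8.47e-05 in the authors' deposited table). The authors' test score was read as the log2 fold over its standard error (SE), which the table does not state, and dividing the log2 fold by the score then gives an implied SE. For PNOC it came to 0.81, which gives an implied 95% interval of 5.51-fold to 49.9-fold around the ratio in the authors' deposited table. The authors' deposited table places it on chromosome 3, bases 108459928 to 108467964, a span of 8.04 kb. Coordinates are printed as that table writes them, on a genome build that was not determined here, and no exon or UTR position was assigned.

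OPRL1, the receptor on which nociceptin acts (ENSGALG00000005949), had the lowest level of the 5 in both groups of the authors' deposited table, 1.43 FPKM (cranial) and 0.158 FPKM (trunk). Its cranial level ranked 206th of 212 from the highest in the authors' deposited table. The difference was 9.07-fold (log2 3.18, implied SE 0.82, q = 0.00671) in the authors' deposited table, with an implied 95% interval from 2.97-fold to 27.7-fold. With a pseudocount of 1 FPKM, that is, 1 FPKM added to each group value of the authors' deposited table, it was 2.099-fold. Precursor and receptor were both listed, and in the authors' deposited table the precursor was 4.13 times the level of the receptor in cranial cells and 2.26 times in trunk cells. FPKM is scaled to transcript length, but the cDNA was amplified, and any bias between genes was not assessed, so levels of different genes compare only roughly. Whether any of these ratios between genes exceeds the spread between libraries is unknown.

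CRHBP, the corticotropin-releasing hormone binding protein gene (ENSGALG00000014994), had the highest cranial level of the 5 genes in the authors' deposited table, 8.15 FPKM, and a trunk level of 0.264 FPKM. This 30.9-fold difference (log2 4.95, implied SE 0.83, q = 6.56e-07) was the largest of the 5 genes and ranked 5th among all 212 rows of the authors' deposited table. Its implied 95% interval ran from 10.02-fold to 95.2-fold in the authors' deposited table. With the pseudocount of 1 FPKM on the authors' deposited table it was 7.24-fold, the largest of the 5 there as well. The authors' deposited table places CRHBP on chromosome Z, a sex chromosome of birds, at bases 22820184 to 22829067. The labels do not give the sex of the embryos.

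CHAT, which encodes the enzyme that makes acetylcholine (ENSGALG00000002289), had a cranial level of 3.21 FPKM and a trunk level of 0.614 FPKM in the authors' deposited table. The difference was 5.23-fold (log2 2.39, implied SE 0.70) with a q of 0.0264, the largest q of the 5 genes, in the authors' deposited table. Its implied 95% interval reached from 2.03-fold to 13.5-fold in the authors' deposited table. The row spans 34.3 kb of chromosome 6, from 3933063 to 3967358, the longest locus of the 5 genes in the authors' deposited table. In the chicken gene table of assembly GRCg7b, the coding genes next to CHAT are OGDHL on one side and SLC18A3 on the other. SLC18A3 encodes the vesicular acetylcholine transporter. The intervals of CHAT and SLC18A3 do not overlap in that assembly, and neither SLC18A3 nor OGDHL had a row under its symbol.

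CHRNA4, the nicotinic receptor alpha-4 subunit gene (ENSGALG00000005801), had a cranial level of 5.25 FPKM and a trunk level of 1.83 FPKM in the authors' deposited table. It had the highest trunk level and the smallest difference of the 5 genes, 2.87-fold (log2 1.52, q = 0.0198) in the authors' deposited table. The implied SE of 0.43 was the smallest of the 5, and the implied 95% interval ran from 1.598-fold to 5.16-fold in the authors' deposited table. The authors' deposited table places it on chromosome 20, bases 8862279 to 8881849. CHRNA4 was the 1 gene of the 5 whose log2 fold moved by less than its implied SE under the pseudocount of 1 FPKM on the authors' deposited table, to 1.14.

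From the highest cranial level to the lowest the order was CRHBP, PNOC, CHRNA4, CHAT and OPRL1 in the authors' deposited table, over a 5.70-fold range. In trunk cells the order was CHRNA4, CHAT, PNOC, CRHBP and OPRL1, over an 11.6-fold range, in the authors' deposited table. CRHBP thus stood first of the 5 in cranial cells but next to last in trunk cells, while OPRL1 stood last in both. Which neighbours in these orders differ beyond the spread between libraries cannot be said from 1 value per group. For the folds, the implied 95% intervals of 8 of the 10 pairs of genes overlapped in the authors' deposited table. The exceptions were CHRNA4 against PNOC and CHRNA4 against CRHBP, whose intervals did not overlap in the authors' deposited table. The intervals rest on an assumed reading of the score and on rows already selected for significance. Overlap or its lack is therefore a description only, and these pairs were not tested.

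**Figure D2:**
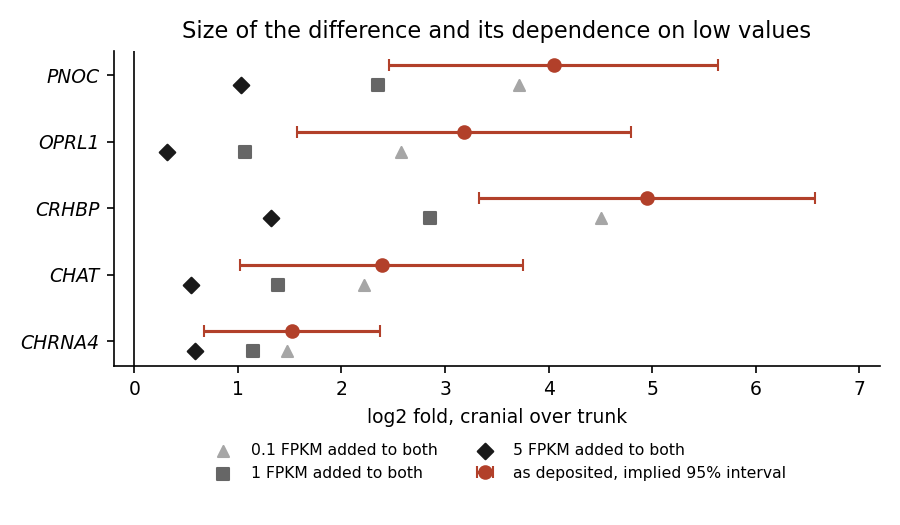
Log2 fold of the 5 genes, cranial over trunk; red circles with bars are the ratio of the deposited values with the implied 95% interval, and grey to black symbols are the ratio with 0.1, 1 or 5 FPKM added to both values. Added values move PNOC, OPRL1 and CRHBP most, to log2 folds of 2.35, 1.07 and 2.86 with 1 FPKM, and CHRNA4 least, to 1.14.

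All 5 genes lay below the median cranial level of the listed rows, 12.1 FPKM, and 4 of the 5, all but CHRNA4, lay above the median fold of 4.34 in the authors' deposited table. The median log2 fold of the 5 genes was 3.18 (9.07-fold) beside 2.12 for all listed rows of the authors' deposited table. Under the pseudocount of 1 FPKM on the authors' deposited table, the median was 1.38 for the 5 genes and 1.51 for all listed rows, and only PNOC and CRHBP remained above the latter. Of the 5 genes, 4 were at least 4-fold higher in cranial cells, a size reached by 54.2% of the listed rows of the authors' deposited table. Differences of 8-fold or more were listed for 3 of the 5, PNOC, OPRL1 and CRHBP, and for 26.9% of all rows of the authors' deposited table. A q under 0.01 was listed for the same 3 genes and for 63.2% of rows, and a q under 0.001 for 2 of the 5, PNOC and CRHBP, and for 38.7% of rows, in the authors' deposited table. At least 1 FPKM in both groups was listed for 1 of the 5, CHRNA4, and for 70.3% of rows of the authors' deposited table. These shares refer to a table that was already selected for significance, and nothing particular to the 5 genes follows from them.

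The trunk value is the denominator of the fold, so the 4 genes with low trunk values were also set beside rows of the same kind. The 63 rows with a trunk value under 1 FPKM had a median fold of 11.02 in the authors' deposited table, with a range from 2.09-fold to 103-fold. Among these 63 rows of the authors' deposited table CRHBP ranked 4th by fold and PNOC 17th. OPRL1 ranked 35th and CHAT 56th of the 63, below the median of rows at such trunk levels in the authors' deposited table. The implied SE of PNOC, OPRL1 and CRHBP, between 0.81 and 0.83, lay near the median of 0.76 for the 63 rows and above that of 0.51 for all rows of the authors' deposited table. The part of low trunk levels in the size of these folds was not tested.

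**Figure D3:**
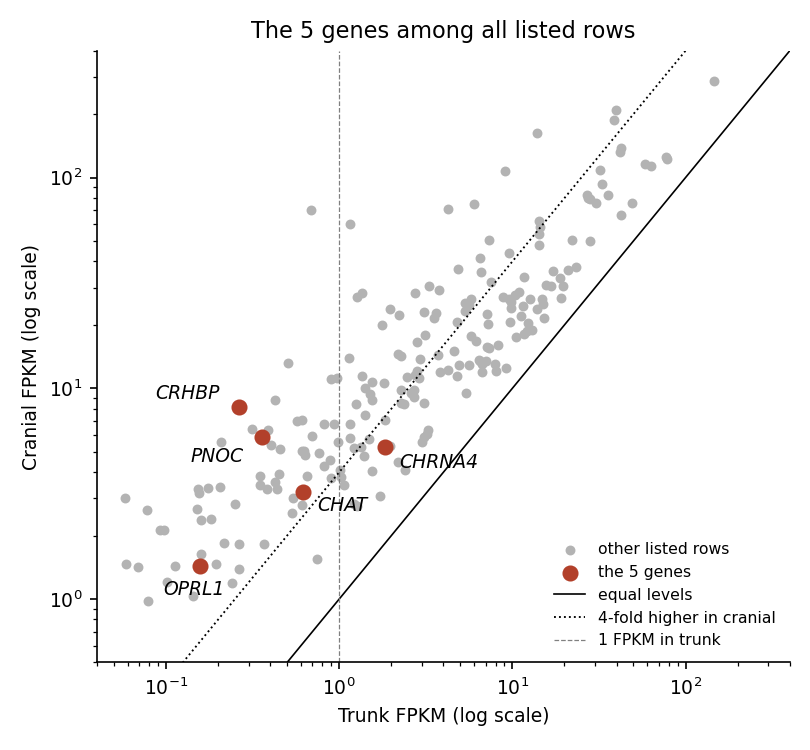
Cranial against trunk FPKM of all 212 listed rows on log axes, with the 5 genes in red and the other rows in grey; the solid line marks equal levels, the dotted line a 4-fold difference and the dashed line 1 FPKM in trunk cells. PNOC, OPRL1, CRHBP and CHAT lie left of 1 FPKM in trunk and above the 4-fold line, and CHRNA4 lies right of it and below that line.

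The listed genes whose pair of values came closest to those of each of the 5 genes were sought by the distance between their log2 cranial and log2 trunk values, over 2 group values, so that a distance of 1 is a 2-fold change in 1 group. Rows named only by an accession or a gene number, and rows that combine genes, were left out of this search. For CRHBP the nearest row was C1orf88 (distance 0.43), followed by PNOC (0.64) and the gallinacin entry GLL5_CHICK (0.66) in the authors' deposited table. For PNOC they were the glutathione S-transferase entry GSTA2_CHICK (0.17), C1orf88 (0.21) and the calmodulin-dependent kinase gene CAMK1G (0.40) in the authors' deposited table. OPRL1 lay closest to GRM3 (0.19), a metabotropic glutamate receptor gene listed at 1.63 against 0.160 FPKM, then to the deubiquitinase gene USP35 (0.31) and to AGBL1 (0.65), in the authors' deposited table. CHAT lay closest to the entry CNTP5_CHICK and to TDRD1, a germline tudor-domain gene (both 0.21), then to ESRP1 (0.39), an epithelial splicing regulator gene listed as RBM35A, in the authors' deposited table. CHRNA4 lay closest to the collagen IV chain gene COL4A6 (0.10), which the authors' deposited table lists at 5.35 and 1.95 FPKM, then to the transporter gene ABCB9 (0.33) and the helicase gene HELQ (0.35). Likeness over 2 values describes level and fold together and no more.

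OPRL1 and CHRNA4 lie on the same chromosome, 20, which held 6 listed rows, with 363 kb between their loci in the authors' deposited table. The row between them, listed by the protein accession Q6PTX1 alone, had 3.197 FPKM in the cranial and 0.155 FPKM in the trunk group of the authors' deposited table, a 20.6-fold difference (q = 0.000328). It lies 111 kb from CHRNA4 and 239 kb from OPRL1 in the authors' deposited table. The next rows outward, also listed by accession, were Q9YI56, 3147 kb before CHRNA4, and Q53HW8, 968 kb after OPRL1, in the authors' deposited table. In the chicken gene table of assembly GRCg7b, used for gene order only, the coding genes next to OPRL1 are NPBWR2, a neuropeptide B and W receptor gene, and RGS19, a regulator of G protein signalling. Neither was listed under its symbol, and rows listed by accession, Q6PTX1 included, were not matched to genes. OPRL1 spans 12.5 kb, from 9245074 to 9257551, in the authors' deposited table.

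The other 3 genes lie on separate chromosomes. PNOC had a listed row, EFR3B, 246 kb before it on chromosome 3, with a cranial level of 4.76 FPKM and a 3.44-fold difference in the authors' deposited table. On the far side of PNOC the nearest listed row was GLL5_CHICK, a gallinacin (avian defensin) entry 1802 kb away, with 5.54 FPKM in cranial cells and a 26.8-fold difference in the authors' deposited table. The nearest row before CRHBP was PPAP2A, 6617 kb away, and the nearest row after it was ENC1, 914 kb away, with 58.2 FPKM in cranial cells and a 4.03-fold difference in the authors' deposited table. The nearest row to CHAT was TMEM26, 5663 kb away, with 13.03 FPKM in cranial cells and a 1.94-fold difference in the authors' deposited table, and no row was listed on the other side of CHAT. In all, 3 of the 5 genes (PNOC, OPRL1 and CHRNA4) lay within 300 kb of another listed row, against 26.9% of the 201 rows that share a named chromosome with another listed row in the authors' deposited table. OPRL1 and CHRNA4 were both counted through the same row, Q6PTX1. The limit of 300 kb was not planned, and gene density along chromosomes was not taken into account. Nothing particular to the 5 genes follows from this count. None of the 5 rows shared its interval with another listed row.

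**Figure D4:**
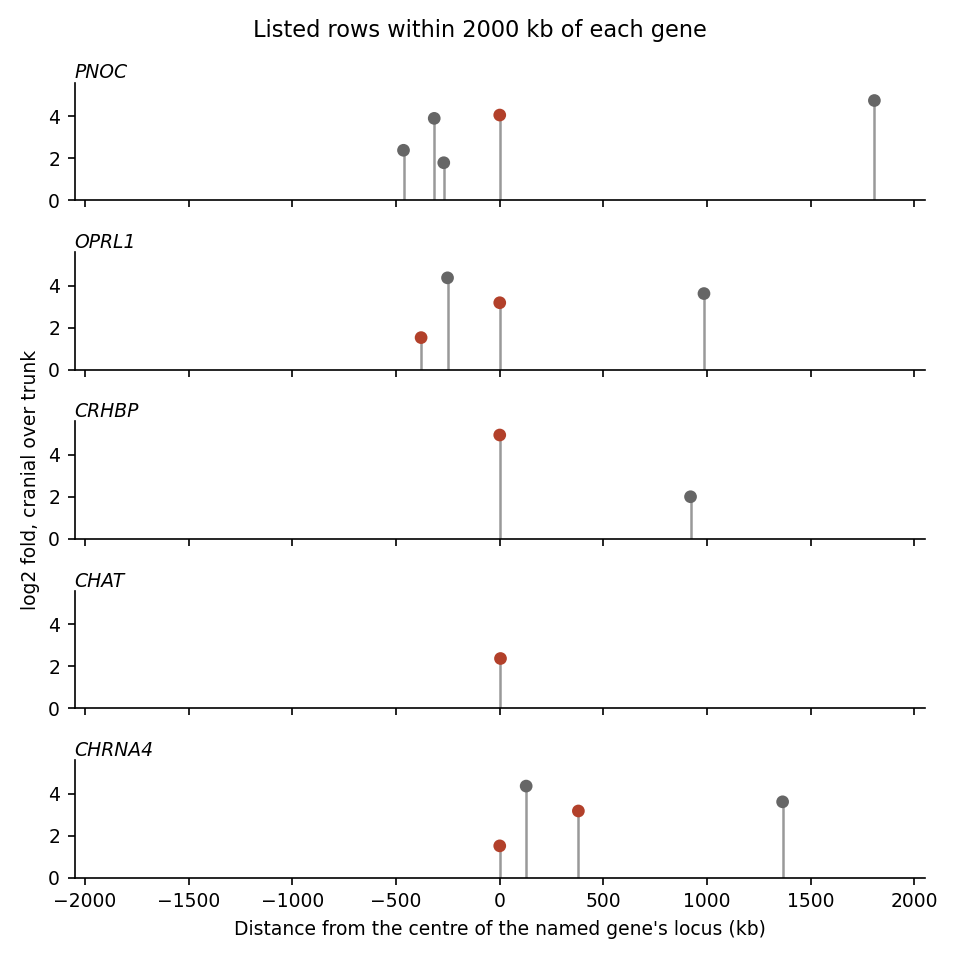
Listed rows within 2000 kb of each of the 5 genes; the horizontal axis is the distance in kb between locus centres, the vertical axis the log2 fold of cranial over trunk, red points are the 5 genes and grey points other listed rows. OPRL1 and CHRNA4 appear in each other's panel with the row Q6PTX1 between them, and CHAT has no other listed row in its window.

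Other genes of both systems were sought in 8 lists with 130 entries: the opioid and nociceptin system, the corticotropin-releasing hormone (CRH) system, other neuropeptide precursors, other neuropeptide receptors, peptide processing, acetylcholine metabolism and transport, nicotinic receptor subunits with their helpers, and muscarinic receptors. The 5 genes themselves were the 5 entries listed, and 0 of the other 125 entries had a row under its symbol. In the opioid and nociceptin list 2 of 8 entries were listed, PNOC and OPRL1, while the opioid precursor genes PDYN, PENK and POMC and the receptor genes OPRM1, OPRD1 and OPRK1 had no row under these symbols. In the CRH list CRHBP was the 1 of 7 entries listed, and neither the hormone gene CRH nor its receptor genes CRHR1 and CRHR2 had a row under their symbols. CHAT was the 1 of 8 entries listed for acetylcholine metabolism and transport, which also held the choline transporter gene SLC5A7 and the acetylcholinesterase gene ACHE. CHRNA4 was the 1 of 24 entries listed for nicotinic receptors, whose list included CHRNB2, the subunit gene that alpha-4 is known to pair with. The 5 muscarinic receptor genes, the 33 other neuropeptide precursor genes, the 38 other neuropeptide receptor genes and the 7 peptide processing genes had 0 listed rows under their symbols. A gene without a row has no value here, and at least 70 of the 212 rows carry only accessions or gene numbers and were not searched. These counts thus show neither absence nor equal levels.

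Markers of other cells that the sort could hold were sought in the same way. Of 16 neuronal marker genes, 10 neural tube marker genes, 11 genes of adrenergic and other sympathetic traits and 13 mesoderm and blood marker genes, 0 had a listed row under their symbols. The authors' deposited table holds only rows higher in cranial cells, so a marker equal in both groups or higher in trunk cells could not appear. These counts therefore do not show that the sorted cells were free of other cells, and genes outside the lists were not counted. Of 12 surface ectoderm and placode marker genes 2 were listed, the E-cadherin gene CDH1 at 24.9 against 5.65 FPKM and ESRP1, for which the authors' deposited table gives 2.56 and 0.532 FPKM. Of 15 neural crest marker genes 1 was listed, SOX8, which the authors' deposited table lists at 30.7 FPKM (cranial) and 3.30 FPKM (trunk). FOXD3, the gene of both enhancers, is among those without a row under its symbol. Both groups were sorted by an enhancer of this gene, so neither a row nor its lack could check the labels. In the authors' deposited table CDH1 and ESRP1 were 4.40-fold and 4.82-fold higher in cranial cells, and their part in the differences of the 5 genes was not tested.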

How the data were processed

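Per the labels' protocols, cDNA amplified from the RNA of sorted cells was sequenced with single reads. The submitters' processing notes name TopHat, Cufflinks, Cuffdiff 2.1 and the assembly galGal4, without a role or an order. The authors' deposited table holds 1 value per group and row, read as FPKM because its columns are those of Cuffdiff, although the file headers say only value. Per the file headers it also holds the authors' log2 fold (trunk over cranial, turned round here), a test score, a p-value and a q-value. The deposited log2 fold equalled the ratio of the values within 1.21e-05 in all rows. For the 5 genes the deposited p-value and the two-sided normal p of the deposited score differed by at most 0.0027%. This bears on how the p-value follows from the score, and cannot show that the score is the log2 fold over its SE. For all 5 genes the deposited log2 fold was negative and the score positive, and both were used without their signs. Reading the log2 fold over the score as an SE is thus an assumption, made after the values were seen. No values per library were used, so depth is unknown and the planned test of replicates was not run. The build of the coordinates was not determined, because some rows use sequence names of an earlier assembly.

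Python 3.11.15 with pandas 2.3.3, NumPy 2.4.6 and SciPy 1.17.1 was used. The arithmetic of the log2 fold, the implied SE and the ranks was checked on simulated data. That check does not bear on the reading of the score as a log2 fold over its SE, nor on the other steps. The 5 genes and all lists were chosen with earlier results of these data known. Named rows were the 5 genes, the listed entries of 14 lists and the nearest listed row on each side of each gene. The 3 rows with a symbol or protein entry name nearest in level to each gene were also named. Another 5 rows, in the closing observations, fell under none of these rules and were picked by function after the values were seen. Gene names came from the table and, for 5 rows, by hand from entry names or an older symbol. All 5 symbols were found in the gene table of GRCg7b, to which no Ensembl identifier was matched.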

Additional observations from a re-analysis of the deposited data

How the results depend on the processing

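No alternative could turn a direction, since every listed row is higher in cranial cells and the settings keep that order. Under a pseudocount of 1 FPKM on the authors' deposited table the log2 folds came to 2.35 for PNOC, 1.07 for OPRL1, 2.86 for CRHBP and 1.38 for CHAT, and their median over the 5 genes was 1.38. With 5 FPKM added they were 1.03 for PNOC, 0.32 for OPRL1, 1.32 for CRHBP, 0.55 for CHAT and 0.59 for CHRNA4, with a median of 0.59. With 0.1 FPKM added each moved by less than its implied SE. Only CHRNA4 remained at 1 FPKM or more in trunk, or in both groups, where the median was its log2 fold of 1.52. Leaving out each of the 5 genes in turn, chosen after seeing the data, gave medians from 2.78 to 3.62. The count of 5 genes became 3 at a q under 0.01, 2 at a q under 0.001, 4 at 4-fold or more, 1 with at least 1 FPKM in both groups and 3 by exact symbol, and the 8 lists then also held 3 listed rows. With 1 FPKM added, the rank by fold went from 21 to 32 for PNOC, from 48 to 153 for OPRL1 and from 5 to 15 for CRHBP, and changed by less than 1.5 times for CHAT and CHRNA4. The median log2 fold of the listed rows, 2.12, was 3.46 for those under 1 FPKM in trunk, a limit added after seeing the data. No paired analysis was possible because each group has a single deposited value, and libraries could not be left out in turn. How depth limits the low trunk values is unknown.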

Other observations

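Another 5 rows of the authors' deposited table lie outside the lists and were chosen after seeing the data, each for what its product is known to do, and they form no tested group. ECEL1, a membrane metallopeptidase of the endothelin-converting enzyme family known from neurons, had 6.80 FPKM in the cranial and 1.16 FPKM in the trunk group of the authors' deposited table, a 5.86-fold difference (q = 0.0142). GFRA3, the receptor for the neurotrophic factor artemin, had values of 9.39 and 1.505 FPKM in the authors' deposited table and differed by 6.24-fold (q = 0.0026). SCGN, the calcium-binding protein secretagogin of neuroendocrine cells, had values of 13.9 and 1.13 FPKM in the authors' deposited table and differed by 12.2-fold (q = 0.000349). DPP6, an accessory subunit of potassium channels, had values of 22.9 and 3.64 FPKM in the authors' deposited table and differed by 6.27-fold, with an implied SE of 0.33 on the log2 scale (q = 5.83e-13). STX3, a syntaxin of membrane fusion, had values of 10.8 and 1.55 FPKM in the authors' deposited table and differed by 6.94-fold (q = 0.0375). Its row lies on Un_random, sequence not placed on a chromosome, and its implied SE of 0.85 was the largest of these 5 rows. All 5 of these rows lay above 1 FPKM in trunk cells, while 63 of the 212 listed rows lay under it in the authors' deposited table. Under a pseudocount of 1 FPKM on the authors' deposited table they ran from 3.61-fold to 6.97-fold. The median of all listed rows under that setting, 1.51, is a log2 fold and thus on another scale than these folds. Without a pseudocount the 5 rows ran from 5.86-fold to 12.2-fold, beside a median of 4.34-fold for all listed rows of the authors' deposited table. That median is not to be set beside the folds with 1 FPKM added. The 5 rows were picked with their values known, so nothing particular to them follows.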
